A study of Mus musculus with 6 samples.

Results

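The 41 genes described here encode the proteins with which liver takes up, activates and burns fatty acids, together with known targets and partners of the nuclear receptor PPAR-alpha. They form a list of gene names, made up of enzymes and carriers of mitochondrial and peroxisomal beta-oxidation and of known PPAR-alpha targets, and all 41 were found in the deposited tables. The samples were 6 livers of house mice (Mus musculus), each from a separate animal and each measured once by RNA-Seq. Of these, 3 came from laboratory mice of the inbred strain C57BL/6, all adult males that a breeder supplied and that were killed on arrival. The other 3 came from wild mice that were live-trapped as adults at a pair of sites in New South Wales and then kept under standard husbandry for some months before they were killed. Wild mouse 1 was a male and the other wild mice were females, while every laboratory mouse was male. The labels name no treatment and no engineered allele, and diet and feeding state before death are not given in the sources used here.

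Fatty acids enter the hepatocyte with the help of transporters such as Cd36, are bound by Fabp1 in the cytosol and are activated to acyl-CoA by synthetases such as Acsl1. Long-chain acyl-CoA is carried into mitochondria as acylcarnitine by Cpt1a and Cpt2, and is then shortened in repeated rounds of dehydrogenation, hydration, a further dehydrogenation and thiolytic cleavage. Peroxisomes run a parallel set of reactions for very long, branched and dicarboxylic chains, with their own oxidases, the bifunctional enzymes Ehhadh and Hsd17b4 and the thiolases Acaa1a and Acaa1b. Acyl-CoA thioesterases release free fatty acids again, and ketone bodies are the product that liver exports in fasting. PPAR-alpha, the product of Ppara, is activated by fatty acids and fibrates, pairs with the retinoid X receptor and switches on many of these genes at DNA elements made of a direct repeat of AGGTCA with 1 base between the repeats.

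Promoters are shown for 4 members named in the results, none of which rests on promoter sequence: Ehhadh and Acot4 were called higher in wild mice, Fabp1 was the only member called higher in laboratory mice, and Hadhb starts 272 bases from its partner gene Hadha on the opposite strand. Each runs 5′ to 3′ along the gene's own strand from 250 bases before to 50 bases after a transcription start of RefSeq (GRCm38.p6), and capitals mark a match to AGGTCANAGGTCA on either strand with at most 2 mismatches. The Ehhadh window lies on the minus strand at chr16:21787785-21788084, Acot4 on the plus strand at chr12:84038129-84038428, Fabp1 on the plus strand at chr6:71199629-71199928 and Hadhb on the plus strand at chr5:30155003-30155302.
Ehhadh: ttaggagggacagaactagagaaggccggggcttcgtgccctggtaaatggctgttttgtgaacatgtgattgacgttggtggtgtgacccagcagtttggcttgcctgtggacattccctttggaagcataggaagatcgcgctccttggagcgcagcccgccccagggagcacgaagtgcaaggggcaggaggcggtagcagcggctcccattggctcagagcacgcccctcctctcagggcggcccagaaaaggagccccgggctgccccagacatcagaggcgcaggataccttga
Acot4: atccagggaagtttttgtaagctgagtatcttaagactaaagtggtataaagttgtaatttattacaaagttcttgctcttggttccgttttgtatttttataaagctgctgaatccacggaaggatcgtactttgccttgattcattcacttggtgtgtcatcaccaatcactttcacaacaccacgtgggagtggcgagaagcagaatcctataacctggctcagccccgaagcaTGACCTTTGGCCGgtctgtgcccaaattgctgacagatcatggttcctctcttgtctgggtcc
Fabp1: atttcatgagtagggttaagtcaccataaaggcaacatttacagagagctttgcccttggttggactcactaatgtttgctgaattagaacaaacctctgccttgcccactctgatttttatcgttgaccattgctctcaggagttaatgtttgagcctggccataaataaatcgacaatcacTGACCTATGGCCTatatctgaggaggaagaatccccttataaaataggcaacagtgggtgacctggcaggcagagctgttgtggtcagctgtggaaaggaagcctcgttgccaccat
Hadhb: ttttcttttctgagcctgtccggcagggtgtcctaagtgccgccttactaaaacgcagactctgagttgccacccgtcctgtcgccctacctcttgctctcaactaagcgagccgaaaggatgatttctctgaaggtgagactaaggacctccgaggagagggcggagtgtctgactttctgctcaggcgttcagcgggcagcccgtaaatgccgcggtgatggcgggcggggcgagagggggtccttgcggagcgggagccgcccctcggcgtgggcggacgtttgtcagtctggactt

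RefSeq windows were matched for 35 of the 41 members, and 6 of the 35 (17.1%) held such a match, beside 1190 of the 27025 genes with a window (4.4%). The 6 were Plin2, Cd36, Fabp1, Acot4, Acot12 and Acox2. Fabp1 had TGACCTATGGCCT 67 to 55 bases before its start, with 1 mismatch, and Acot12 had TGACCTCTCACCT 110 to 98 bases before its start, also with 1 mismatch. The matches of Acot4 (TGACCTTTGGCCG), Plin2 (GGACCCCTGACCT), Cd36 (TGGCCTCTGACTT, in 1 of its windows) and Acox2 (AGGACAGAGGTGA, after its start) each had 2 mismatches. A perfect match was present in 13 genes and in 0 members, and up to 1 mismatch in 174 genes and 2 members. The Ehhadh and Hadhb windows held no match at this limit. The Acot4 match lies before a start within the listed gene, which begins at 84037254. For the Ehhadh window and the matched Cd36 window, the bases checked after the start were not found in the gene's GENCODE transcripts. These are matches of letters in a short window and no measure of binding.

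The deposited FPKM (read fragments assigned to each gene, divided by its length and by the size of the library) gives levels on a linear scale per length, so levels of different genes can be compared. The deposited zFPKM sets each gene's log2 FPKM against the peak of the distribution in its own mouse, in units of an SD fitted to that distribution, and it was the scale of the main test. A difference of 1 in zFPKM therefore corresponded to 1 such SD, which lay between 2.51 and 3.12 log2 units in the 6 mice. The SD and the mode differed among mice, so FPKM ratios and zFPKM differences need not point the same way. The tables hold no read counts, so depth is unknown and a low FPKM may rest on few reads. Hepatocyte markers were abundant (summed FPKM of 9 markers 29266 to 40468 in laboratory and 23962 to 26665 in wild mice), with 5 of 9 called higher in wild mice and 2, Apoa1 and Ttr, higher in laboratory mice. Muscle markers summed to at most 0.0662 FPKM and adipocyte markers to at most 0.794, with Plin1, Lep, Retn and Adig at 0 in all mice. The 8 Kupffer cell markers (sum 39.6 to 49.3 in laboratory and 13.7 to 136 in wild mice) and the 7 endothelial markers (26.2 to 40.9 and 22.7 to 73.5) gave 0 calls in limma, with 2 and 1 of them at an unadjusted p under 0.05, which 25.7% of all genes reached. The wild male had the lowest FPKM of all mice for each of the 8 Kupffer cell markers. With sex in the model the median differences of the 2 lists (laboratory minus wild) were 1.06 and 0.69 in zFPKM, beside 0.27 for all genes. Laboratory mice were called higher for 5 of 7 erythrocyte markers (sum 1341 to 5138, against 724 to 1582) and 1 of 5 cholangiocyte markers (29.1 to 63.7, against 12.1 to 26.7). Of 6 stellate cell markers, 2, Col1a1 and Col3a1, were called higher in laboratory mice, but the sum was higher in wild mice (73.1 to 134, against 34.3 to 53.2), and 3, Dcn, Lrat and Reln, were higher there in FPKM without overlap. The part of these differences in the results below was not tested, and in bulk tissue fewer cells of a type and less RNA per cell cannot be told apart.

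Most of the tested genes of fatty acid oxidation were higher in wild than in laboratory mice. Of the 41 members, 37 could enter the test over 18619 genes, and 22 of these 37 were called higher in wild mice (limma, Benjamini-Hochberg adjusted p under 0.05), beside 7.28% of all tested genes. The SE of this test followed a gene's mean zFPKM and was smaller at higher levels, so it does not measure the spread of the gene's own mice. The adjusted p-values of this test share that limit. Most members stood above the median FPKM of all tested genes, 0.828 to 1.94 per mouse, so smaller differences sufficed for a call. The share of calls among genes of similar level is not given here. Fabp1 alone was called higher in laboratory mice, a direction in which 7.17% of all genes were called, and 14 members were not called. Over both directions 23 of 37 members were called, against a background of 14.4%. The median difference of the 37 members (laboratory minus wild) was -0.44 in zFPKM, while that of all tested genes was 0.0050. In zFPKM, all 3 wild mice lay above all 3 laboratory mice for 25 members, beside 14.1% of all genes. In FPKM the same was true of 34 members, beside 43.7% of all genes, so that much of the separation in FPKM was shared with genes at large. The ratio of mean FPKM, wild over laboratory, ran from 3.27 for Hsd17b4 to 174 for Acot3 among the 22 members called higher in wild mice.

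**Figure D1:**
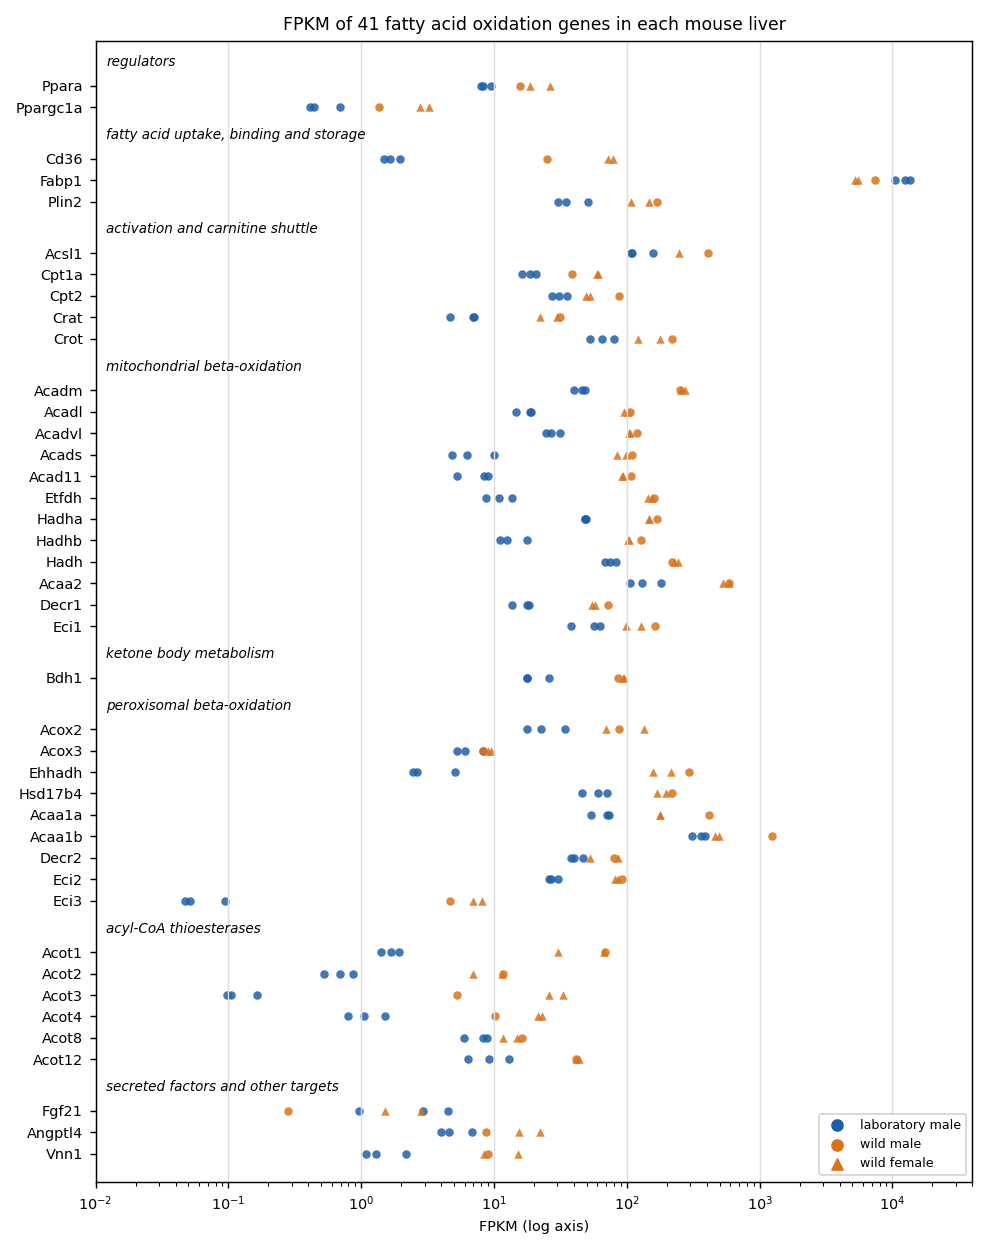
FPKM on a log axis (x) of the 41 members (y, ordered by role), 1 point per mouse, with blue circles for laboratory males, an orange circle for the wild male and orange triangles for the wild females. The wild mice lie to the right of the laboratory mice for most genes, Fabp1 is reversed at the far right, Acadl is drawn at the copy listed for all mice, and Acsl1 lacks wild mouse 3, whose estimate is marked as failed.

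The median FPKM of the 37 members was 11.0, 17.7 and 13.03 in laboratory mice 1, 2 and 3, and 87.0, 81.1 and 84.2 in wild mice 1, 2 and 3. Ranked by FPKM among all 47232 gene names used, between 9 and 11 of the members were among the 1000 highest genes in each laboratory mouse, and between 19 and 21 in each wild mouse. The members together thus stood higher within the wild transcriptome by rank, a measure that does not depend on the scale of the mouse.

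The size of the shift depended on the scale. On log2(FPKM + 0.1), 33 members were called higher in wild mice and 1, Fabp1, in laboratory mice, but 37.9% of all genes were then called higher in wild and 8.19% in laboratory mice. The median of all genes (laboratory minus wild) was itself shifted to -0.47 on that scale, and the members' median of -1.97 was -1.498 relative to it. After quantile normalisation of zFPKM between the mice, 27 members were called higher in wild and 0 in laboratory mice, beside 20.4% and 18.7% of all genes. Limma without the filter on low values called 0 members at an adjusted p under 0.05 and 21 at an unadjusted p under 0.05, which 17.3% of the 18619 genes of the main test and 6.82% of all 47232 genes also reached in that fit. With sex in the model, which leaves the single wild male as the only direct comparison of origin within a sex, 11 members were called higher in wild mice and 2, Fabp1 and Fgf21, in laboratory mice, beside 1.34% of all genes called higher in wild and 6.04% in laboratory mice. The 11 were Cd36, Acadm, Acads, Acad11, Etfdh, Hadhb, Ehhadh, Acaa1a, Eci3, Acot1 and Acot3.

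**Figure D2:**
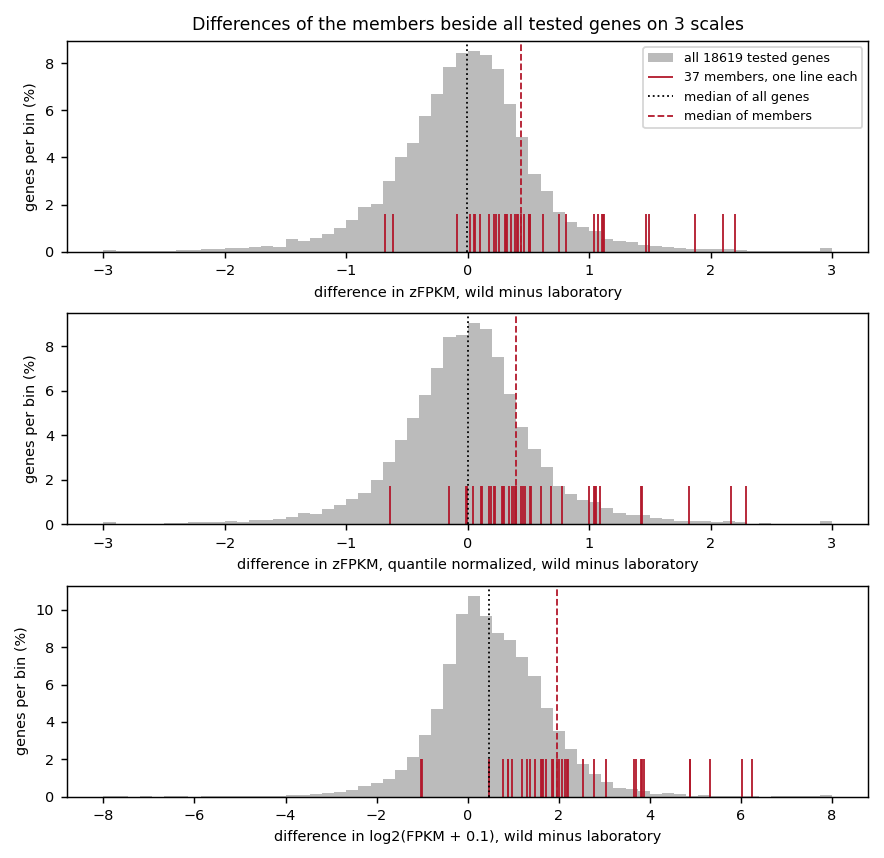
Histograms of the difference wild minus laboratory over the 18619 tested genes (grey, percent of genes per bin, y) with a red line for each of the 37 members, on zFPKM, on quantile normalised zFPKM and on log2(FPKM + 0.1) (x, from top to bottom). The dashed median of the members lies to the right of the dotted median of all genes on all 3 scales, and on log2(FPKM + 0.1) the median of all genes is itself to the right of 0.

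Of the 2 regulators 0 were called by limma, and 0 had an unadjusted p under 0.05. Ppara, on chromosome 15 of GRCm38.p6 from 85734910 to 85806851, encodes PPAR-alpha itself. Ppara had 8.04, 9.47 and 8.20 FPKM in laboratory mice 1, 2 and 3 and 15.7, 18.7 and 26.5 in wild mice 1, 2 and 3. The wild mice lay above the laboratory mice without overlap in FPKM, by a ratio of means of 2.37. In zFPKM the groups differed by 0.17 (SE 0.17) and the difference was not called (limma, adjusted p = 0.589). On log2(FPKM + 0.1) it was called (limma, adjusted p = 0.00295, with a range of 0.00295 to 0.927 over all alternatives). With sex in the model, which moved the median of all genes (laboratory minus wild) to 0.27, the difference of Ppara was 0.12, or -0.16 relative to that median. Ppargc1a encodes PGC-1alpha, a coactivator of PPAR-alpha and of mitochondrial genes. Its FPKM was 0.408, 0.444 and 0.689 in the laboratory males against 1.36, 3.26 and 2.75 in wild mice. The difference of 0.51 in zFPKM (SE 0.33) was not called (limma, adjusted p = 0.337), although the groups did not overlap in FPKM, and with sex in the model it was 0.011 (laboratory minus wild), or -0.26 relative to the median of all genes.

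Of the 3 members of fatty acid uptake, binding and storage, Cd36 and Plin2 were higher in wild mice and Fabp1 in laboratory mice. Cd36 encodes a fatty acid translocase of the plasma membrane and lies on chromosome 5 from 17781690 to 17888959. Its FPKM was 1.95, 1.64 and 1.48 in the laboratory males against 25.0, 72.4 and 79.2 in wild mice. The wild females were at about the same level and the wild male was lower, but still far above every laboratory male. The means were 1.69 ± 0.238 and 58.8 ± 29.5 (SD, n = 3 each), and zFPKM differed by 1.47 (SE 0.19, limma, adjusted p = 8.82e-13). Among all genes Cd36 ranked between 6824 and 8686 in laboratory mice and between 952 and 2276 in wild mice.

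Fabp1 encodes the liver fatty acid-binding protein, lies on chromosome 6 from 71199879 to 71205034, and was the most abundant member with a mean zFPKM of 4.001. Fabp1 had 13668, 12341 and 10413 FPKM in the laboratory males against 7333, 5257 and 5542 in wild mice. All laboratory mice were higher, by a ratio of means of 2.01 and a zFPKM difference of 0.62 (SE 0.08, limma, adjusted p = 7.54e-13). By rank it stood between 9 and 12 in laboratory mice and between 6 and 10 in wild mice, so its place among the most abundant transcripts was similar. The direction was lost on quantile normalisation, where laboratory minus wild was -0.12 (limma, adjusted p = 0.424, with a range of 8.02e-21 to 0.996 over all alternatives). This pattern was not particular to Fabp1. Apoa1 and Ttr, hepatocyte markers of similar rank, differed by 0.68 and 0.53 in zFPKM (laboratory minus wild). After quantile normalisation they stood at -0.25 and -0.29. Of the 9 hepatocyte markers, 5 others were called higher in wild mice. The longest Fabp1 transcript has 553 bases, while the median over tested genes was 2927, and with the trend on transcript length removed in each mouse the difference was 0.49.

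Plin2 encodes perilipin 2, which coats lipid droplets. Its FPKM was 35.0, 50.8 and 30.3 in the laboratory males against 168, 146 and 108 in wild mice, a difference of 0.41 in zFPKM (SE 0.13, limma, adjusted p = 0.0155). The groups were apart by more than their spread, with the wild male the highest.

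In activation and the carnitine shuttle only Crat was called, 1 of 4 tested members, beside 7.28% of all tested genes called higher in wild mice. Crat encodes carnitine acetyltransferase, which moves short acyl groups between CoA and carnitine. Its FPKM was 4.67, 7.10 and 6.96 in the laboratory males against 31.2, 21.99 and 29.6 in wild mice, a difference of 0.50 in zFPKM (SE 0.17, limma, adjusted p = 0.032). Cpt1a, the outer membrane carnitine palmitoyltransferase and rate-controlling step of long-chain entry, ran from 16.3 to 20.6 FPKM in laboratory and from 38.8 to 60.2 in wild mice and was not called. Cpt2, its partner in the inner membrane, ran from 27.5 to 35.2 and from 49.5 to 87.0, and Crot, the peroxisomal carnitine octanoyltransferase, from 52.9 to 79.6 and from 121 to 219. Both were separate in FPKM and not called in zFPKM.

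Acsl1, the main long-chain acyl-CoA synthetase of liver, could not enter the main test because its estimate is marked as failed in wild mouse 3. In the other 5 mice its FPKM was 107, 158 and 110 in the laboratory males against 409 and 248 in wild mice 1 and 2. Fitted on those 5 mice, the difference was 0.21 in zFPKM and not called (limma, adjusted p = 0.294).

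Mitochondrial beta-oxidation, the longest of the role lists, held the most called members, 7 of 10 tested. All were higher in wild mice, beside 7.28% of all tested genes. The acyl-CoA dehydrogenases, which catalyse the first step, were among the most different. Acads, the short-chain enzyme on chromosome 5 from 115110299 to 115119346, measured 6.30, 10.0 and 4.78 FPKM in the laboratory males against 109, 98.2 and 84.2 in wild mice, a difference of 1.103 in zFPKM (SE 0.15, limma, adjusted p = 7.46e-11). Acad11, which acts on long and very long chains, had 5.30, 8.45 and 9.07 FPKM in the laboratory males against 108, 94.1 and 92.5 in wild mice, a difference of 1.04 (SE 0.15, limma, adjusted p = 6e-10). Acadm, the medium-chain enzyme on chromosome 3 from 153922353 to 153944643, had 40.2, 48.6 and 46.2 FPKM in the laboratory males against 249, 275 and 254 in wild mice, a difference of 0.62 (SE 0.12, limma, adjusted p = 1.02e-05). The groups were far apart for each of these genes, and the ratio of means was 13.8 for Acads, 12.9 for Acad11 and 5.77 for Acadm.

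Etfdh encodes the oxidoreductase that passes electrons from the acyl-CoA dehydrogenases to ubiquinone. Etfdh had 8.64, 13.6 and 10.9 FPKM in the laboratory males against 161, 154 and 145 in wild mice, with a zFPKM difference of 1.08 (SE 0.14, limma, adjusted p = 2.87e-12). The ratio of means was 13.9, close to that of Acads.

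The later steps differed unevenly. Hadha and Hadhb encode the alpha and beta subunits of the mitochondrial trifunctional protein, which works as a complex of both, and the genes are divergent neighbours on chromosome 5. Hadhb, from 30155253 to 30184593, measured 11.0, 17.7 and 12.4 FPKM in the laboratory males against 129, 102 and 103 in wild mice, a difference of 0.81 in zFPKM (SE 0.14, limma, adjusted p = 6.03e-07). Hadha ran from 48.3 to 48.9 FPKM in laboratory and from 146 to 168 in wild mice and was not called (limma, adjusted p = 0.0618). The ratio of Hadhb to Hadha within a mouse, which needs no scaling between mice, was 0.228, 0.361 and 0.257 in the laboratory males against 0.766, 0.695 and 0.708 in wild mice. The 2 groups did not overlap (exact permutation test, two-sided, p = 0.1, below which 3 mice against 3 cannot go), so the subunits' transcripts were closer to equal in wild mice. This pair and the other pairs compared by ratio below were chosen after their values were seen.

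Acaa2, the mitochondrial thiolase, had 130, 181 and 105 FPKM in the laboratory males against 586, 586 and 532 in wild mice, a difference of 0.47 in zFPKM (SE 0.11, limma, adjusted p = 0.000303). Decr1, a reductase for unsaturated chains, had 17.7, 18.4 and 13.6 FPKM in the laboratory males against 71.6, 54.4 and 57.7 in wild mice, a difference of 0.42 (SE 0.15, limma, adjusted p = 0.0365). For both genes every wild mouse was above every laboratory mouse. Hadh, the medium and short-chain hydroxyacyl-CoA dehydrogenase, ran from 68.7 to 82.5 FPKM in laboratory and from 218 to 243 in wild mice, and Eci1, an isomerase for unsaturated chains, from 37.8 to 62.7 and from 99.2 to 162. Neither of these was called in zFPKM.

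**Figure D3:**
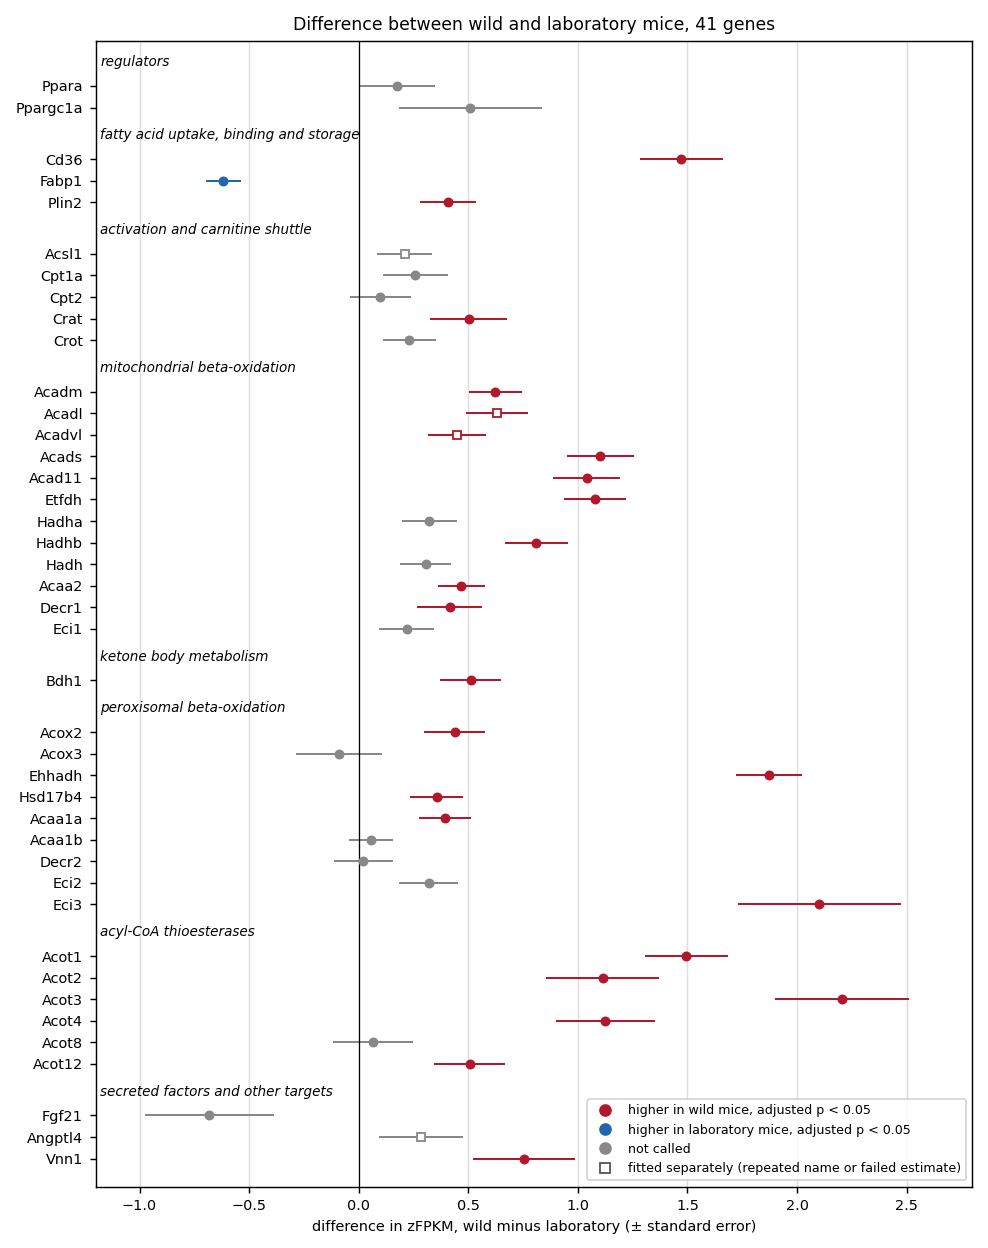
Difference in zFPKM, wild minus laboratory, with its standard error (x) for the 41 members (y, by role). Red marks members called higher in wild mice, blue Fabp1, grey those not called and open squares the 4 fitted separately. Acot3, Eci3 and Ehhadh lie furthest to the right at 2.20, 2.10 and 1.87.

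Acadl and Acadvl, the long-chain and very-long-chain acyl-CoA dehydrogenases, stand outside the main test because the annotation lists each more than once, on a chromosome and on an alternate sequence of the same assembly, and laboratory mouse 1 lists a single copy. Acadvl had the same FPKM at both copies, 26.7, 31.1 and 24.6 in the laboratory males against 120, 104 and 105 in wild mice. In a fit with these names added, Acadvl was higher in wild mice by 0.45 in zFPKM (SE 0.13, limma, adjusted p = 0.00926). The copies of Acadl differed. The Acadl copy on chromosome 1 had 53.9 and 54.0 FPKM in laboratory mice 2 and 3 and 46.9, 47.4 and 56.9 in wild mice, so the groups overlapped. The copy on the alternate sequence had 14.7, 18.9 and 18.6 FPKM in the laboratory males against 105, 102 and 95.1 in wild mice, a difference of 0.63 (SE 0.14, limma, adjusted p = 0.000172). That copy took 25.9% and 25.6% of the sum of both in laboratory mice 2 and 3 and 69.2%, 68.2% and 62.6% in wild mice. The sum itself was 72.8 and 72.6 in the laboratory males against 152, 149 and 152 in wild mice, a ratio of means of 2.08 in place of 5.80 for the alternate copy alone. Whether the reads of the wild mice matched the alternate sequence better was not tested. With the 4 members added, 25 of the 41 were called, beside 14.4% of all genes in the main test. Acadl is counted among the 25 at its alternate copy, and its copy on chromosome 1 was not fitted.

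**Figure D4:**
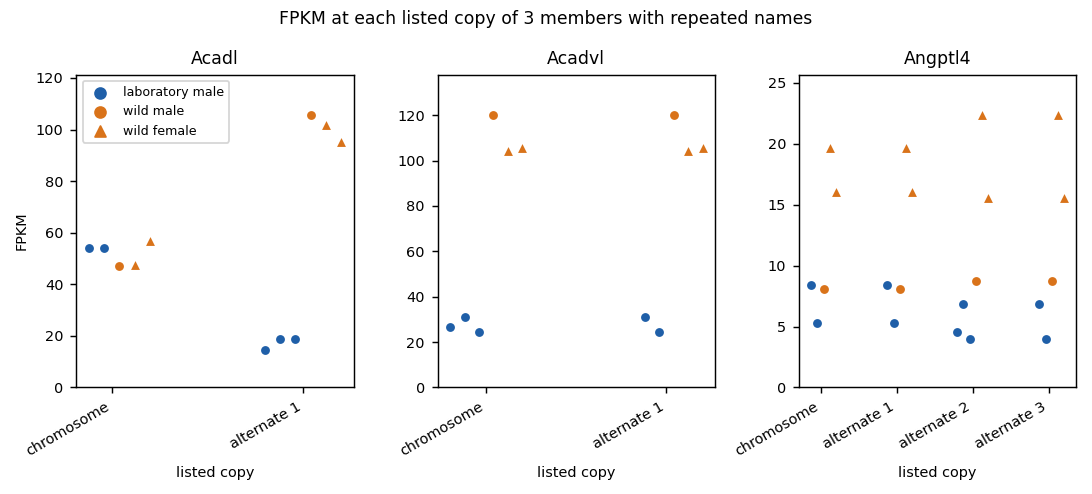
FPKM (y) at each listed copy (x) of Acadl, Acadvl and Angptl4, 1 point per mouse, with blue for laboratory and orange for wild mice and triangles for females. The groups overlap at the chromosome copy of Acadl and are far apart at its alternate copy, while the copies of Acadvl have equal values. For Angptl4 the groups overlap at the chromosome copy.

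Bdh1, the mitochondrial beta-hydroxybutyrate dehydrogenase that interconverts the main ketone bodies, had 17.6, 26.0 and 17.6 FPKM in the laboratory males against 85.8, 94.6 and 93.0 in wild mice. The groups were far apart relative to their spread, and the difference was 0.51 in zFPKM (SE 0.14, limma, adjusted p = 0.00363).

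In peroxisomal beta-oxidation 5 of 9 members were called, all higher in wild mice, beside 7.28% of all tested genes. They included Ehhadh, the member with the lowest adjusted p. Ehhadh encodes the L-specific bifunctional enzyme, a classical PPAR-alpha target, and lies on chromosome 16 from 21761285 to 21787834. Its FPKM was 2.47, 5.08 and 2.64 in the laboratory males against 295, 216 and 159 in wild mice. The groups were separated by more than an order of magnitude, with means of 3.40 ± 1.46 and 223 ± 68.5 (SD, n = 3 each) and a difference of 1.87 in zFPKM (SE 0.15, limma, adjusted p = 7.6e-32). The adjusted p of limma was 0.000158 after quantile normalisation and ranged from 2.1e-30 to 0.208 over all alternatives. Ehhadh ranked between 4520 and 6894 among all genes in laboratory mice and between 315 and 568 in wild mice. Hsd17b4 encodes the D-specific bifunctional enzyme, which catalyses the same steps through the other stereoisomer. It had 60.98, 71.3 and 46.2 FPKM in the laboratory males against 218, 168 and 197 in wild mice, a difference of 0.36 (SE 0.12, limma, adjusted p = 0.0283). The ratio of Ehhadh to Hsd17b4 was 0.0405, 0.0713 and 0.0572 in the laboratory males against 1.35, 1.29 and 0.805 in wild mice, without overlap (exact permutation test, p = 0.1). Hsd17b4 was thus the far more abundant of the pair in every laboratory mouse, and the pair stood at similar levels in wild mice.

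Acox2, a peroxisomal oxidase for branched chains and bile acid intermediates, had 17.6, 34.5 and 22.5 FPKM in the laboratory males against 87.6, 69.9 and 134 in wild mice, a difference of 0.44 in zFPKM (SE 0.14, limma, adjusted p = 0.0146). Acox3, another branched-chain oxidase, ran from 5.25 to 8.27 FPKM in laboratory and from 8.21 to 9.45 in wild mice, and was, of the 37 tested members, the only one besides Fgf21 whose groups overlapped in FPKM.

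The peroxisomal thiolases Acaa1a and Acaa1b were highest in the wild male. Acaa1a, on chromosome 9 from 119341028 to 119350296, measured 53.9, 70.7 and 73.9 FPKM in the laboratory males against 414, 178 and 179 in wild mice, a difference of 0.39 in zFPKM (SE 0.12, limma, adjusted p = 0.00999). Acaa1b, on the same chromosome from 119148043 to 119157093, ran from 312 to 389 FPKM in laboratory mice, reached 1235 in the male trapped in the wild and 458 and 493 in the females, and was not called. The ratio of Acaa1a to Acaa1b was 0.173, 0.196 and 0.190 in the laboratory males against 0.336, 0.389 and 0.363 in wild mice, without overlap (exact permutation test, p = 0.1), so the ratio in the wild male was like that in the females. Of the stretches of 100 bases, the length of a read, 15.7% in Acaa1a and 22.6% in Acaa1b are shared between the transcripts, so their split is uncertain to that extent.

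Eci2 and Eci3, neighbours on chromosome 13, encode peroxisomal isomerases for unsaturated chains. Eci3, from 34946614 to 34963988, had the lowest mean zFPKM of all members, -0.78, with an FPKM of 0.047, 0.094 and 0.051 in the laboratory males against 4.66, 6.89 and 8.12 in wild mice. The zFPKM difference was 2.10 (SE 0.37, limma, adjusted p = 9.15e-07), but the laboratory level is so low that the ratio of means of 102 is imprecise. Eci2 ran from 26.1 to 30.1 FPKM in laboratory and from 81.1 to 91.4 in wild mice and was not called. The ratio of Eci3 to Eci2 was at most 0.00312 in laboratory mice and at least 0.0510 in wild mice (exact permutation test, p = 0.1), and they share 0.868% and 1.63% of their stretches of 100 bases. Decr2, the peroxisomal reductase for unsaturated chains, ran from 38.0 to 46.7 FPKM in laboratory and from 52.8 to 85.9 in wild mice and was not called, with a zFPKM difference of 0.021.

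Of the role groups, the acyl-CoA thioesterases had the largest median difference, with a median (laboratory minus wild) of -1.12 in zFPKM. Of their 6 members 5 were called higher in wild mice, beside 7.28% of all tested genes. Acot1 to Acot4 lie together on chromosome 12 between 83987861 and 84060400 and encode the cytosolic, mitochondrial and peroxisomal forms of 1 enzyme family. Acot1, the cytosolic form, had 1.67, 1.93 and 1.42 FPKM in the laboratory males against 68.1, 30.1 and 66.8 in wild mice, a difference of 1.49 in zFPKM (SE 0.19, limma, adjusted p = 3.14e-13). Acot2, the mitochondrial form, had 0.871, 0.695 and 0.524 FPKM in the laboratory males against 11.7, 6.91 and 11.6 in wild mice, a difference of 1.11 (SE 0.26, limma, adjusted p = 0.000356). In both, wild mouse 2 was the lowest of the wild mice and still far above the laboratory mice. The other pair had the opposite order within the wild mice, with the male lowest. Acot3, a peroxisomal form, had 0.0983, 0.105 and 0.164 FPKM in the laboratory males against 5.30, 32.9 and 25.9 in wild mice, a difference of 2.20 (SE 0.31, limma, adjusted p = 6.11e-11). Acot4, also peroxisomal, had 0.788, 1.04 and 1.503 FPKM in the laboratory males against 10.2, 21.4 and 22.8 in wild mice, a difference of 1.13 (SE 0.23, limma, adjusted p = 2.07e-05). For Acot2 and Acot4 the call was lost with sex in the model, as it was for Acot12, described below.

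Ratios within the cluster also differed between the groups. Acot1 over Acot2 was 1.92, 2.78 and 2.70 in the laboratory males against 5.82, 4.36 and 5.77 in wild mice, and Acot3 over Acot4 was 0.125, 0.101 and 0.109 in the laboratory males against 0.522, 1.53 and 1.14 in wild mice. Neither ratio overlapped (exact permutation test, p = 0.1 for each of the 6 pairs compared, the smallest possible, and 0.1 after Benjamini-Hochberg adjustment over these pairs). Because the pairs were chosen after their values were seen, the adjustment does not account for that choice. The p-values are therefore no separate support. The share of other gene pairs without overlap is not given here. Acot1 and Acot2 share 16.3% and 17.1% of their stretches of 100 bases and Acot1 shares 4.71% of its own with Acot3, so the split among Acot1, Acot2 and Acot3 is uncertain, while Acot2 and Acot4 share none. Acot12, a cytosolic acetyl-CoA thioesterase outside the cluster, had 6.37, 9.21 and 13.03 FPKM in the laboratory males against 41.7, 43.7 and 41.3 in wild mice, a difference of 0.51 in zFPKM (SE 0.16, limma, adjusted p = 0.0158). Acot8, a peroxisomal thioesterase encoded on chromosome 2, ran from 5.94 to 8.86 FPKM in laboratory and from 11.7 to 16.2 in wild mice and was not called.

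Among the remaining targets, Vnn1 was called and the secreted factors were not. Vnn1, which encodes the pantetheinase vanin 1, had 1.29, 2.16 and 1.08 FPKM in the laboratory males against 8.99, 15.1 and 8.39 in wild mice, a difference of 0.75 in zFPKM (SE 0.23, limma, adjusted p = 0.0123). Fgf21, the hormone that liver releases in fasting, had 2.94, 0.958 and 4.503 FPKM in the laboratory males against 0.280, 2.81 and 1.52 in wild mice. The groups overlapped and the wild male was the lowest of all mice, and with sex in the model Fgf21 was called higher in laboratory mice by 1.65 in zFPKM (limma, adjusted p = 0.0125, with a range of 0.0125 to 0.653 over all alternatives). Angptl4, a secreted inhibitor of lipoprotein lipase, is listed at several copies. At the copy listed for all mice it had 4.56, 6.84 and 3.998 FPKM in the laboratory males against 8.77, 22.3 and 15.5 in wild mice and was not called (limma, adjusted p = 0.368).

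The calls differed in how firm they were. Of the 23 called members, 14 were called whichever mouse was left out, and Plin2, Crat, Decr1, Bdh1, Acox2, Hsd17b4, Acaa1a, Acot12 and Vnn1 lost the call without at least 1 mouse. Cd36, Acad11, Etfdh, Ehhadh, Eci3, Acot1 and Acot3 were called in all 17 alternatives other than the fit without a filter on low values. The shares of all called genes that kept their calls in this way are not given here. These counts therefore rank the members among themselves and do not set them apart from other called genes. The 22 members called higher in wild mice kept that direction in all 18 alternatives, a count without the 2 fits that only added genes, and Fabp1 kept its own in 16, the exceptions being quantile normalisation on either scale. The alternatives refit the same mice in which these members were called, or all but 1 of them. A kept direction was therefore likely beforehand and is no separate support. Without wild mouse 3, which was trapped at another site than wild mice 1 and 2, 15 members were called.

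Within the wild mice, the ratio of the male to the mean of the females was 0.18 for Acot3, 0.33 for Cd36 and 0.459 for Acot4, and 2.32 for Acaa1a and 2.60 for Acaa1b. With 1 wild male and 0 laboratory females, sex and individual variation cannot be told apart among the wild mice, and sex and origin cannot be told apart for the wild females.

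A further 97 genes of the same pathways that are not members were listed by role, and 93 could be tested. Of these, 28 were called higher in wild and 3 in laboratory mice, beside the backgrounds of 7.28% and 7.17%, and their median difference (laboratory minus wild) was -0.22 in zFPKM. The omega-hydroxylases of the Cyp4a family, which are classical PPAR-alpha targets, were called higher in wild mice in 4 of 4 cases. Cyp4a14 had 9.80, 8.44 and 6.87 FPKM in the laboratory males against 926, 152 and 445 in wild mice, a difference of 1.72 in zFPKM (SE 0.13, limma, adjusted p = 2.72e-35). Cyp4a10 had 33.7, 20.5 and 19.2 FPKM in the laboratory males against 400, 266 and 338 in wild mice, a difference of 1.08 (SE 0.12, limma, adjusted p = 1.02e-15). Cyp4a31 and Cyp4a32, close relatives whose reads may be split between them, differed by 1.22 (SE 0.22, limma, adjusted p = 1.06e-06) and 1.18 (SE 0.17, limma, adjusted p = 7.11e-10).

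Acot5, a further peroxisomal thioesterase, was listed at 0, 0.023 and 0 FPKM in laboratory mice and had 0.522, 0.703 and 1.17 in wild mice, a difference of 1.88 (SE 0.47, limma, adjusted p = 0.00111) that rests on the floor given to low values. Hacl1, which cleaves 2-hydroxyacyl-CoA in peroxisomes, had 12.98, 20.1 and 17.9 FPKM in the laboratory males against 266, 250 and 228 in wild mice, a difference of 1.096 (SE 0.13, limma, adjusted p = 1.04e-14). Of the 17 peroxisomal genes, 7 were called higher in wild mice and 1 in laboratory mice, beside 7.28% and 7.17% of all tested genes. Of the 6 other ketogenesis genes, 2 were called, both higher in wild mice, beside the same 7.28%. Echs1, the mitochondrial short-chain enoyl-CoA hydratase, had 24.8, 36.3 and 22.8 FPKM in the laboratory males against 219, 283 and 263 in wild mice, a difference of 0.87 (SE 0.13, limma, adjusted p = 5.99e-10). Acad12, a further acyl-CoA dehydrogenase, and Acsm3, a medium-chain acyl-CoA synthetase, were higher in wild mice by 1.24 (SE 0.30, limma, adjusted p = 0.000806) and 1.07 (SE 0.20, limma, adjusted p = 1.81e-06).

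Few genes were called in some of the groups. Of 12 tested genes of lipid droplets and lipolysis, 0 were called by limma in zFPKM, 3 had an unadjusted p under 0.05, beside 25.7% of all genes, and 2 were called higher in wild mice on log2(FPKM + 0.1), beside 37.9% of all genes. Of 13 nuclear receptors and cofactors, Rxra, the partner of PPAR-alpha, was the single gene called in zFPKM, a share close to the 7.28% of all genes called higher in wild mice, with an FPKM of 13.7, 18.4 and 16.5 in the laboratory males against 73.1, 76.5 and 88.8 in wild mice, a difference of 0.55 (SE 0.14, limma, adjusted p = 0.00228). The 3 genes called higher in laboratory mice were Nudt7, a peroxisomal CoA hydrolase, Acot13, a thioesterase of another family, and Etfb, a subunit of the electron transfer flavoprotein. Nudt7 had 447 FPKM in the wild male but 74.7 and 57.8 in the females, beside 240, 345 and 249 in the laboratory males, so the wild male was above the laboratory males and the females were below them. Acot13 had 123, 134 and 104 FPKM in the laboratory males against 63.0, 67.7 and 75.1 in wild mice, without overlap. Rxra, Nudt7, Acot13 and Etfb were named after their values were seen.

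**Figure D5:**
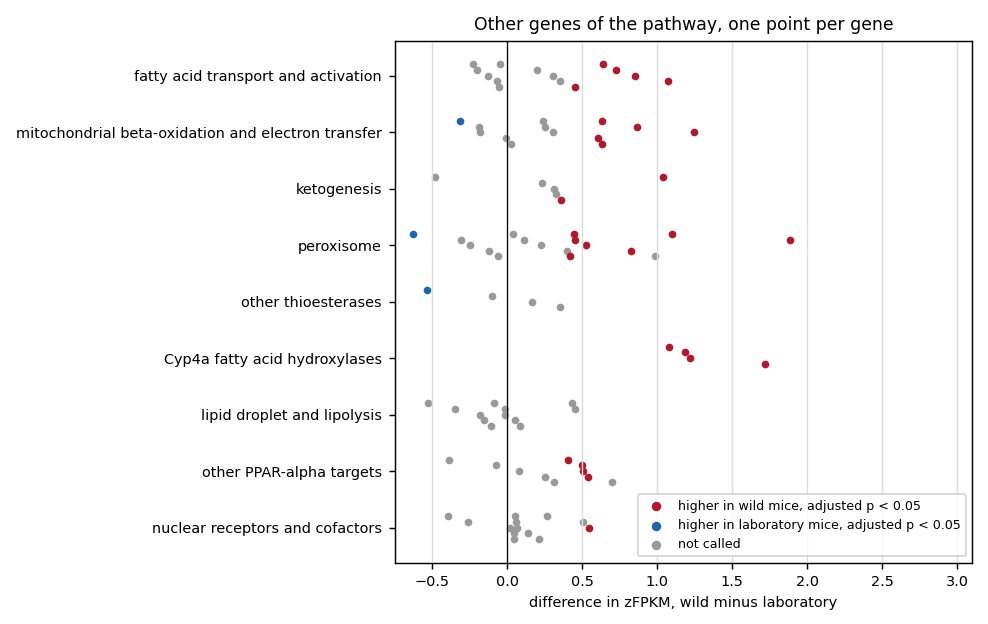
Difference in zFPKM, wild minus laboratory (x), of the tested genes among 97 further pathway genes (y, by role), 1 point per gene, with red for genes called higher in wild mice, blue for genes called higher in laboratory mice and grey for genes not called. The 4 Cyp4a genes all lie to the right of 1, while the genes of lipid droplets and lipolysis are spread around 0 and none is called.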

How the data were processed

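RNA was extracted from unfixed frozen liver of 6 mice, and libraries of polyadenylated RNA that keep the strand were read from 1 end. The authors aligned the reads with kalign to a masked mouse genome, calculated the deposited FPKM with the Tuxedo pipeline and converted it to the deposited zFPKM score, a linear function of log2 FPKM within each mouse. Per the labels the build was GRCm38.p6. The deposited values hold no counts, so the count-based test of the study was not repeated and no interval for depth is given. There were 3 mice per group, and the SE of the main test followed the trend over all genes.

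Of 47256 gene names listed once in every mouse, 24 with an estimate marked as failed (too much data or a failure of the estimate) were left out, and 47232 were used. No failures are marked for laboratory mouse 1. Values of zFPKM under -3 were set to -3, and the 18619 genes above -3 in at least 3 mice were tested with the linear models of limma 3.58.1, with a variance trend (R 4.3.3), and p-values were adjusted by the Benjamini-Hochberg method over all 18619 genes with a threshold of 0.05. Members with repeated names were added in a separate fit at the copy listed for all 6 mice, and Acsl1 with wild mouse 3 left out. Ratios and two-sided exact permutation tests used Python 3.11.15, numpy 2.4.6 and pandas 2.3.3. Gene positions match RefSeq for GRCm38.p6, from which the promoter windows were taken, and shared stretches and transcript lengths were computed on GENCODE transcripts of GRCm38.

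The members, the lists of other pathway genes and the lists of markers were chosen with earlier results of these data known. Full values are given for members that were called, the regulators, the members with the highest and the lowest mean zFPKM, and the 10 called genes with the largest difference among the other pathway genes, of which 1 is not reported here. The procedures were tested on simulated data. Alternatives covered the floor, filter, scale, normalisation, variance trend, sex as a covariate and each mouse left out. After seeing the data, quantile normalisation on the log2 scale, the fits with repeated names and the removal of trends on transcript length and GC content were added.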

Additional observations from a re-analysis of the deposited data

How the results depend on the processing

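Leaving out each mouse in turn gave 15 to 21 called members, 1420 to 2556 called genes, 20 to 32 called other pathway genes and a median difference of the members between -0.54 and -0.36. All directions here are laboratory minus wild. The lowest count of members, 15, came without wild mouse 3. The count of genes was 1655 without laboratory mouse 1, 1747 without laboratory mouse 2, 1694 without wild mouse 2 and 1420 without wild mouse 3, and that of other pathway genes was 20 without wild mouse 2. Without the filter on low values 23 genes, 0 members and 0 other pathway genes were called. Without the trend of the variance the counts were 795, 7 and 8, and with sex as a covariate 1374, 13 and 13. On log2(FPKM + 1), 8242 genes and 61 other pathway genes were called and the members' median was -1.85. On log2(FPKM + 0.1) the values were 8589, 63 and -1.97, and with the repeated names and Acsl1 added 8594 genes, 38 members, 63 other pathway genes and -1.97. Quantile normalisation gave 7282 genes and 51 other pathway genes, the same on log2(FPKM + 0.1) gave 7283, 51 and a median of -1.14, and a median of 0 in each mouse gave 5270 genes. The cause of these changes was not tested.

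The sign turned for members with small differences and for Fabp1, in part under settings that moved all genes. The median of all genes was -0.47 on log2(FPKM + 0.1) and 0.27 with sex as a covariate. Acox3 was -0.41 on log2(FPKM + 1), -0.47 on log2(FPKM + 0.1) with and without the added names (0.0012 relative to the median of all genes), and between -0.030 without wild mouse 1 and 0.18 without wild mouse 2. Fabp1 was -0.12 after quantile normalisation and -0.34 after that on the log2 scale. Decr2 was 0.013 after quantile normalisation, 0.014 with a median of 0 in each mouse, 0.037 after quantile normalisation on log2, 0.026 with the trends on length and GC content removed, 0.082 without laboratory mouse 3, 0.061 without wild mouse 2 and at its lowest -0.11 without laboratory mouse 1. Acot8 was 0.0035 after quantile normalisation, 0.010 after that on log2, 0.034 without laboratory mouse 3, 0.017 without wild mouse 2 and at its lowest -0.13 without laboratory mouse 2. With sex as a covariate Ppara was 0.12, Ppargc1a 0.011, Cpt1a 0.025, Decr2 0.040 and Acot8 0.048, all below the median of all genes under that model. With a mouse left out, Cpt2 lay between -0.16 and 0.024 (without laboratory mice 1 and 3) and Acaa1b between -0.15 and 0.090 (without wild mice 2 and 1). None of these members but Fabp1 was called in the main test.

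No paired analysis was possible because the labels number no replicates and tie no mouse of one group to a mouse of the other. Where 1 mouse is left out, the remaining 2 of its group share the spread estimated over all genes and the other group. The unknown depth limits the low values most, so the ratios of Eci3, Acot3 and Acot5 to their laboratory levels are imprecise.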
